A study of Mus musculus with 10 samples.

Results

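The 46 genes described here copy the genome: they license replication origins, unwind and copy DNA, supply its building blocks, restore chromatin behind the fork and govern entry into S phase. They were selected by symbol from a list. Each of the 46 symbols was found in the deposited tables, which hold 48397 gene symbols, and all 46 passed the low-count filter and were among the 15175 genes tested. RNA came from wild-type mice operated on at 2 months of age and sampled 2 weeks later. One group of 5 libraries followed constriction of the transverse aorta (TAC), a narrowing of the aortic arch that raises the pressure the heart must pump against, and the other group of 5 followed a sham operation. The series' design text adds that the mice were male C57BL/6J and calls the tissue the left appendage, whereas the sample labels call it the left atrium. No transgene or drug is given for either group. Nothing in the labels ties each library to an animal of its own. The p-values therefore refer to the spread among these libraries, which may be in part technical.

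Before S phase, the origin recognition complex, CDC6 and CDT1 load the ring-shaped MCM2-7 complex onto DNA as an idle helicase. When cyclin E and its kinase partner are active and E2F factors are released from the retinoblastoma protein, CDC45 and the GINS complex join MCM2-7 to form the working helicase, and DNA polymerases follow it. Transcripts of many of these proteins are known E2F targets that accumulate at the transition from G1 to S, and they are scarce in tissues whose cells have left the cycle, such as the adult heart muscle. Other heart cells, among them fibroblasts, endothelial cells and macrophages, can divide after injury.

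Promoter sequence was examined because E2F sites are the shared regulatory feature for which these genes are known. RefSeq promoter windows (GRCm38.p6, 250 bases before to 50 bases after each gene's start) were available for 38 of the 46 genes. The letters TTTCCCGC, TTTGGCGC, TTTCGCGC or TTTGCCGC, on either strand and with overlapping matches counted, occurred in the windows of 15 of these 38 genes (39.5%). The same letters occurred in 704 of 27025 genes (2.6%) over all windows of the table. The 5 stretches that follow show these letters in capitals with their flanks. They lie ahead of the RefSeq start and outside annotated exons, and they belong to a licensing factor, a pair of helicase subunits, the catalytic subunit of DNA polymerase alpha and a factor that guides the copying of DNA methylation. Each is written 5′ to 3′ on the strand of its gene. The Cdc6 stretch (chr11:98907993-98908040, plus strand) and the Uhrf1 stretch (chr17:56304108-56304155, plus strand) lie in introns of the longer GENCODE gene models. Those of Mcm5 (chr8:75109336-75109387, plus strand), Mcm6 (chr1:128359725-128359835, minus strand) and Pola1 (chrX:93632266-93632313, minus strand) lie upstream of the gene. In Mcm5 and Mcm6 a run of capitals holds overlapping matches on both strands.
Cdc6: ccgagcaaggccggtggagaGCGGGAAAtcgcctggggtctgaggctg
Mcm5: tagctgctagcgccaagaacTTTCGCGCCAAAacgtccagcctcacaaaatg
Mcm6: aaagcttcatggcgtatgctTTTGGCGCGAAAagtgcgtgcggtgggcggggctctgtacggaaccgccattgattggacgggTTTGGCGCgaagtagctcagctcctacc
Pola1: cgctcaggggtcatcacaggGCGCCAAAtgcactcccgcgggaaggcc
Uhrf1: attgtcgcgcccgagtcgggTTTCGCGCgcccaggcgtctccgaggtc

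A match is a description of the letters and not a measured binding site. All 15 genes with a match were higher in TAC (median log2 fold change 1.68, from 0.62 for Pold1 to 3.89 for Uhrf1). Of the 23 genes whose window held none of these letters, 17 were higher, 1 was lower and 5 did not pass the test (median 1.72), so the members with and without the letters had nearly the same median. The latter set included Rrm2 and E2f1, the largest increases of all. Other forms of the site, and sites outside the windows, were not searched, so a window without the letters does not mean a gene without E2F sites. The E2f1 window, for 1, lies inside the longer GENCODE gene model. The 8 genes without a window, of which 7 were higher, had a median of 1.17. The letters TTTGAA or TTCGAA of the cell cycle homology region, an element known from genes of G2 and mitosis, were in the windows of 8 of the 38 genes (21.1%) and of 21.7% of all genes. On a list of mitosis genes they were in 21 of 27 genes with windows (77.8%), whereas the E2F-type letters were in 1 of 27 (3.7%). CCAAT, the letters bound by the factor NF-Y, was found for 63.2% of the replication genes, 74.1% of the mitosis genes and 41.1% of all genes.

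Replication and S-phase transcripts were higher in TAC in most steps of the process. Of the 46 genes, 39 were called higher, 1 (Rfc1) was lower under TMM scaling and 6 did not pass the test (edgeR quasi-likelihood test, Benjamini-Hochberg adjusted p under 0.05 over all genes tested). Over all 15175 tested genes, 28.9% were called higher and 27.9% lower. The median log2 fold change, TAC over sham, was 1.67 for the 46 genes and 0.01 for all tested genes. Of the 46, 31 were called with a log2 fold change of at least 1, against 11.7% of all tested genes, and 18 with one of at least 2, against 4.59%. For 39 genes, each of them called higher, the lowest TAC library lay above the highest sham library, as it did for 21.5% of all tested genes. These levels are CPM, counts scaled to an effective library size that TMM sets. When libraries were scaled by their size alone, the median of all genes moved from 0.01 to 0.37, calls over all genes went from 4383 higher and 4233 lower to 7741 higher and 1929 lower, and 43 of the 46 genes were called higher.

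Summed over the 46 genes, sham replicates 1 to 5 held 468, 454, 437, 448 and 463.8 CPM. TAC replicates 1 to 5 held 1182, 952, 838, 796 and 1159 CPM. The sham sums were nearly level (454 ± 12.3, SD, n = 5), and the TAC sums were higher and more spread (985 ± 178). Abundant genes weigh most in these sums, and single genes were typically less level in sham than the sum. Gene by gene, the SD as a percentage of the mean had a median of 16.04% in sham and 20.71% in TAC. As a share of raw gene counts, the 46 genes took from 0.0376% to 0.0441% in sham and from 0.0914% to 0.137% in TAC. TAC replicate 1 was the highest of its group for 28 genes and replicate 5 for 13, while replicate 3 was the lowest for 23 and replicate 4 for 20. Among sham libraries, replicate 1 was the highest for 24 genes. Depth ran from 17117306 to 43956384 gene counts per library, and sham replicates 1 and 2 were the shallowest. For 41 of the genes every sham library exceeded the count cutoff of the filter (10 reads in a library of median size), and 35 of these were higher and 1 lower. The other 5 exceeded it in 0 (Orc1), 1 (Mcm10), 2 (Fen1), 3 (E2f2) and 4 (Brca1) of the 5 sham libraries, so TAC libraries carried them through the filter. All but Fen1 were called higher. Those 4 are among the genes counted above as not overlapping and as having a log2 fold change of at least 2, and such counts lean on the filter for them.

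**Figure D1:**
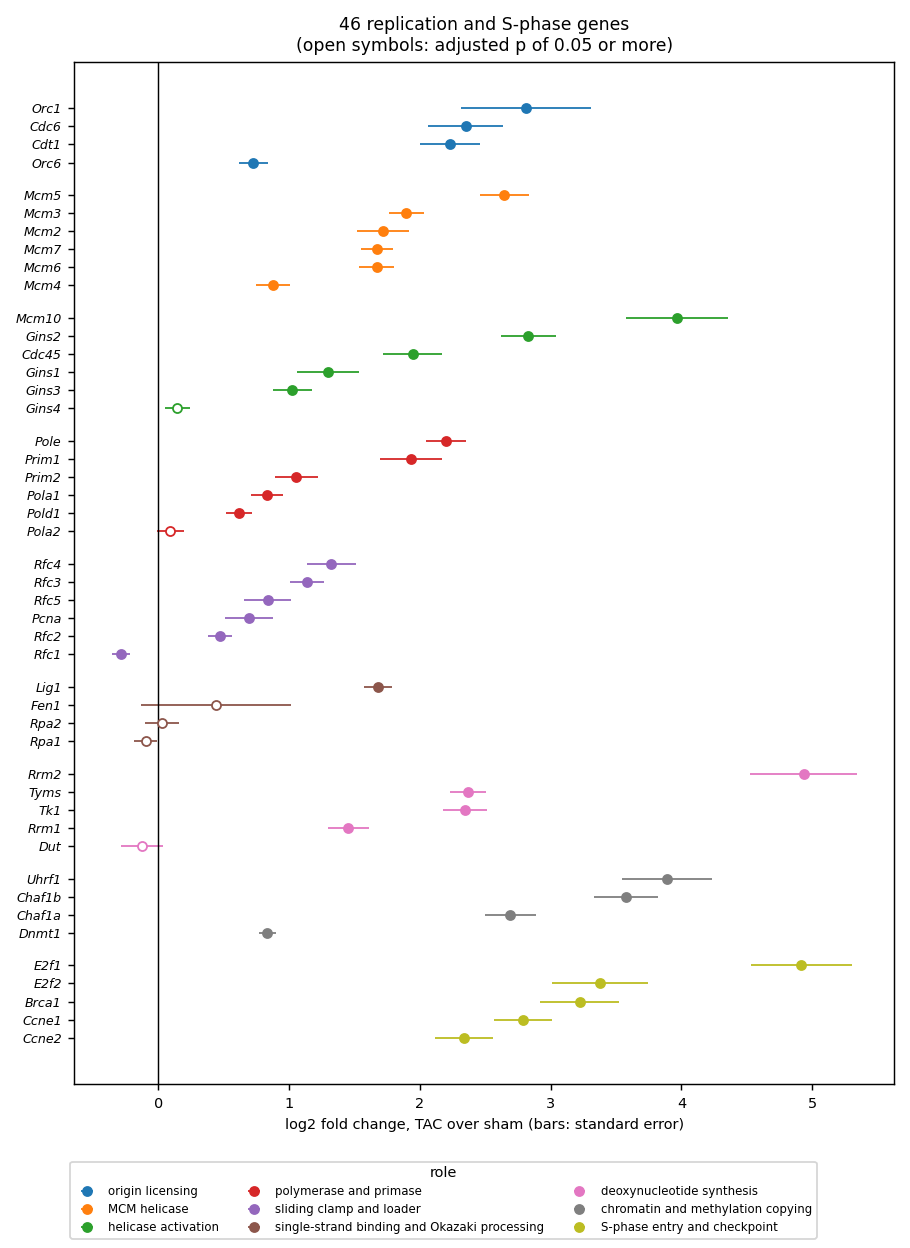
Log2 fold change, TAC over sham, of each of the 46 genes (horizontal axis, log2 units; points are fitted values, bars their standard error), grouped and coloured by role, with open symbols for genes whose edgeR adjusted p was 0.05 or more. The filled points of 39 genes lie to the right of 0, Rrm2 and E2f1 lie farthest right, and Rfc1 is the filled point to the left of 0 under TMM scaling, though not with library size as the only scaling (0.075).

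All 4 origin-licensing genes were higher in TAC. Orc1, the largest subunit of the origin recognition complex (chr4:108579423-108614833, GRCm38), was scarce in every library. Orc1 stood at 0.248, 0, 0.152, 0.155 and 0.075 CPM in sham replicates 1 to 5 and at 0.81, 0.523, 0.622, 1.12 and 1.58 CPM in TAC replicates 1 to 5. The groups did not overlap (log2 fold change 2.81, SE 0.50, edgeR adjusted p = 5.22e-04), but the 5 sham libraries together held 17 reads, the zero in sham replicate 2 allows up to 0.192 CPM (3 counts, counting error only), and 10.8% of the exonic bases of Orc1 are shared with an antisense gene. Orc6, the smallest subunit, changed least of the 4. Orc6 stood at 5.898, 5.88, 4.86, 4.59 and 4.84 CPM in sham replicates 1 to 5 and at 9.23, 9.02, 7.84, 8.604 and 8.23 CPM in TAC replicates 1 to 5. All TAC libraries were above all sham libraries (log2 fold change 0.73, SE 0.11, edgeR adjusted p = 2.10e-04). Cdc6, the loading ATPase, rose from a mean of 1.01 ± 0.426 to 5.09 ± 1.1997 CPM (here and below ± SD over 5 libraries; log2 fold change 2.35, SE 0.29, edgeR adjusted p = 4.08e-05). Cdt1, which brings MCM2-7 to the origin, went up from 2.02 ± 0.594 to 9.48 ± 2.43 CPM (log2 fold change 2.23, SE 0.23, edgeR adjusted p = 1.17e-05).

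Each of the 6 subunits of the MCM2-7 helicase was higher in TAC, with Mcm5 changing most and Mcm4 least. Mcm5 stood at 8.07, 5.62, 4.89, 5.102 and 5.33 CPM in sham replicates 1 to 5 and at 48.5, 37.3, 28.95, 27.1 and 37.7 CPM in TAC replicates 1 to 5. Mcm5 (chr8:75109569-75128439) was 6.19-fold higher in the mean (log2 fold change 2.64, SE 0.19, edgeR adjusted p = 1.54e-06), and its promoter stretch printed above holds overlapping E2F-type letters. Mcm4 stood at 14.3, 13.7, 12.3, 13.7 and 15.4 CPM in sham replicates 1 to 5 and at 29.6, 25.6, 17.5, 27.3 and 27.3 CPM in TAC replicates 1 to 5. The lowest Mcm4 library of TAC, replicate 3, was close to the highest of sham, replicate 5 (log2 fold change 0.88, SE 0.13, edgeR adjusted p = 1.59e-04). Mcm6 stood at 16.6, 14.6, 11.6, 13.3 and 14.2 CPM in sham replicates 1 to 5 and at 56.2, 45.99, 34.7, 39.9 and 46.2 CPM in TAC replicates 1 to 5. Mcm6 was well separated between groups (log2 fold change 1.67, SE 0.13, edgeR adjusted p = 2.75e-06). Mcm3 (1.90), Mcm2 (1.72) and Mcm7 (1.67) had log2 fold changes between those of Mcm5 and Mcm4, and their adjusted p-values by edgeR were 1.54e-06, 3.40e-05 and 1.81e-06. In Mcm7, which hosts microRNA genes, 12.6% of exonic bases are shared with other annotated genes.

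Compared with the mean of the 5 other subunits in the same library, which removes scaling between libraries, the Mcm5 ratio was higher in TAC and the Mcm4 ratio lower. Both genes themselves were higher in TAC. Each is part of the mean that the other is compared with, so these ratios are not independent. The log2 ratio of Mcm5 counts to the others was -0.96 ± 0.16 in sham and 0.10 ± 0.16 in TAC (SD, 5 libraries each; exact permutation p = 0.00794, adjusted p = 0.0175 over 22 ratios). The Mcm4 ratio was 0.57 ± 0.21 in sham and -0.49 ± 0.21 in TAC (exact permutation p = 0.00794, adjusted p = 0.0175). The Mcm5 ratio ran from -1.13 to -0.71 in sham and from -0.16 to 0.26 in TAC, and the Mcm4 ratio from 0.29 to 0.85 and from -0.71 to -0.14, so neither overlapped between groups. The ratios of Mcm2, Mcm3, Mcm6 and Mcm7 did not pass the test (adjusted p from 0.105 to 0.905, exact permutation test). Per exonic length, as TPM (counts over exonic length, scaled to a fixed sum), the 6 subunits spanned 3.41 (Mcm5) to 8.97 (Mcm4) in sham, a ratio of 2.64, and 17.4 (Mcm2) to 30.4 (Mcm6) in TAC, a ratio of 1.75. Mcm4 was thus the most abundant subunit transcript per length in sham and Mcm6 in TAC. This ranking depends on the lengths used, which join all annotated exons (3589 bases for Mcm4 and 6956 for Mcm2). In CPM Mcm6 had the highest mean in both groups (14.1 in sham and 44.6 in TAC).

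Of the 6 genes that turn loaded MCM2-7 into a moving helicase, 5 were higher. Mcm10, which helps to activate the assembled helicase (chr2:4989714-5012791), rose most. Mcm10 stood at 0.559, 0.192, 0.152, 0.18 and 0.075 CPM in sham replicates 1 to 5 and at 3.72, 3.76, 2.25, 2.73 and 4.14 CPM in TAC replicates 1 to 5. All TAC libraries exceeded 2 CPM and all sham libraries were under 1 CPM (log2 fold change 3.97, SE 0.39, edgeR adjusted p = 9.44e-06). Without sham replicate 1, which held the highest sham value, the log2 fold change was 4.45, and this was the largest shift of any member when a library was left out. Cdc45, a helicase cofactor, went up from 2.46 ± 0.401 to 9.502 ± 3.16 CPM (log2 fold change 1.94, SE 0.22, edgeR adjusted p = 2.54e-05).

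The 4 GINS subunits, which bind each other in 1 complex, differed widely. Gins2 rose most (0.866 ± 0.219 CPM in sham and 6.16 ± 1.27 CPM in TAC; log2 fold change 2.83, SE 0.21, edgeR adjusted p = 1.81e-06), though 67.3% of its exonic bases are shared with the antisense gene Gse1 and the strand setting of the counts is not known. Gins1 went up from 1.65 ± 0.368 to 4.09 ± 1.29 CPM (log2 fold change 1.29, SE 0.24, edgeR adjusted p = 6.75e-04) and Gins3 from 2.001 ± 0.322 to 4.09 ± 0.325 CPM (log2 fold change 1.03, SE 0.15, edgeR adjusted p = 1.45e-04). Gins4 was the exception. Gins4 stood at 15.3, 15.7, 18.2, 16.4 and 19.1 CPM in sham replicates 1 to 5 and at 21.5, 19.4, 16.4, 18.3 and 18.1 CPM in TAC replicates 1 to 5. The Gins4 groups overlapped, and the difference did not pass the test (log2 fold change 0.14, SE 0.09, edgeR adjusted p = 0.22). With library size as the only scaling Gins4 passed the test (log2 fold change 0.51, edgeR adjusted p = 0.00020; 0.00020 to 0.67 across 22 alternatives). Per length, Gins4 was at 28.98 in sham (28.02 to 30.3 over libraries) and 44.3 in TAC (38.4 to 47.8) TPM, far above Gins2 at 0.492 in sham (0.363 to 0.684 over libraries) and 4.75 in TAC (3.99 to 5.502). The ratio of the highest to the lowest GINS transcript per length was 58.9 in sham and 9.31 in TAC. It depends on the lengths used, which join all annotated exons (4097 bases for Gins2 and 1349 for Gins4). In CPM the means were closer, at 16.9 for Gins4 and 0.866 for Gins2 in sham and 18.7 and 6.16 in TAC. Gins2 over Gins3 counts had a log2 ratio of -1.21 ± 0.50 in sham and 0.57 ± 0.29 in TAC (exact permutation p = 0.00794, adjusted p = 0.0175).

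**Figure D2:**
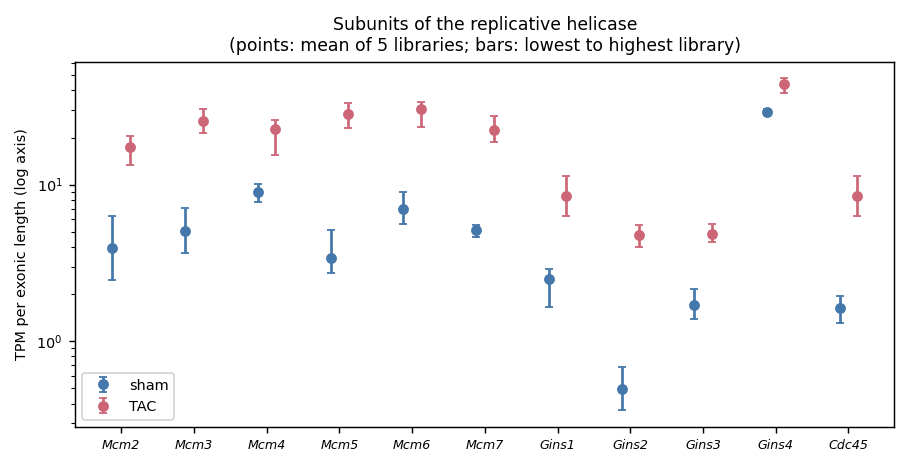
Level per exonic length (vertical log axis, TPM) of MCM2-7, the 4 GINS subunits and Cdc45 in sham and TAC, with points for the mean of 5 libraries and bars from the lowest to the highest library. The TAC range lies above the sham range for each gene shown, Gins4 included on this scale (from 28.98 to 44.3 TPM in the mean), although Gins4 overlapped between groups in CPM scaled by TMM.

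For the polymerases and primase, 5 of 6 genes were higher. Pole, the catalytic subunit of DNA polymerase epsilon, which copies the leading strand (chr5:110286306-110337474), rose most. Pole stood at 3.29, 2.94, 2.46, 2.58 and 2.55 CPM in sham replicates 1 to 5 and at 15.9, 11.2, 10.6, 10.8 and 14.5 CPM in TAC replicates 1 to 5. No TAC library came near the sham range (log2 fold change 2.20, SE 0.15, edgeR adjusted p = 1.40e-06). Pold1, the catalytic subunit of DNA polymerase delta, which copies the lagging strand, rose less. Pold1 stood at 10.1, 12.5, 9.97, 12.9 and 12.6 CPM in sham replicates 1 to 5 and at 17.001, 18.5, 17.02, 16.9 and 19.8 CPM in TAC replicates 1 to 5. The Pold1 groups were also separate (log2 fold change 0.62, SE 0.10, edgeR adjusted p = 3.04e-04). Pold1 over Pole counts had a log2 ratio of 2.06 ± 0.29 in sham and 0.52 ± 0.26 in TAC, which ran from 1.60 to 2.32 in sham and from 0.10 to 0.72 in TAC (exact permutation p = 0.00794, adjusted p = 0.0175).

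DNA polymerase alpha and primase work as 1 complex of 4 subunits that lays down primers. The primase subunits Prim1 (2.39 ± 0.703 to 8.99 ± 1.88 CPM; log2 fold change 1.93, SE 0.24, edgeR adjusted p = 4.49e-05) and Prim2 (3.15 ± 0.496 to 6.55 ± 1.17 CPM; log2 fold change 1.05, SE 0.16, edgeR adjusted p = 2.03e-04) rose, as did the catalytic subunit Pola1 (7.62 ± 0.774 to 13.5 ± 1.95 CPM; log2 fold change 0.83, SE 0.12, edgeR adjusted p = 1.28e-04). Pola2, the accessory subunit, did not pass the test. Pola2 stood at 10.9, 10.3, 11.7, 12.3 and 11.3 CPM in sham replicates 1 to 5 and at 12.95, 12.4, 9.98, 11.2 and 13.7 CPM in TAC replicates 1 to 5. Its groups overlapped (log2 fold change 0.09, SE 0.10, edgeR adjusted p = 0.47), and it passed with library size as the only scaling (log2 fold change 0.45, edgeR adjusted p = 0.0033, range 0.0033 to 0.88 over 22 alternatives). Relative to Pola2, Pola1 counts were higher in TAC, with a log2 ratio of -0.57 ± 0.21 in sham and 0.16 ± 0.10 in TAC (exact permutation p = 0.00794, adjusted p = 0.0175). The Prim1 to Prim2 ratio also passed (-0.45 ± 0.47 in sham and 0.45 ± 0.44 in TAC; exact permutation p = 0.0238, adjusted p = 0.0374), but it overlapped between groups and lost its call without sham replicate 1, 3, 4 or 5 (highest adjusted p 0.0748, exact permutation test).

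The sliding clamp and its loader held the 1 gene that was lower under TMM scaling. Pcna, the ring that tethers polymerases to DNA, stood at 23.8 ± 5.67 CPM in sham and 38.4 ± 7.997 CPM in TAC (log2 fold change 0.70, SE 0.18, edgeR adjusted p = 0.0069). Its count is uncertain, since reads can be shared with near-identical copies, of which the pseudogene Pcna-ps2 held 460 reads in sham and 2025 in TAC. Rfc4 rose most among the loader subunits. Rfc4 stood at 4.59, 4.66, 4.47, 5.102 and 4.92 CPM in sham replicates 1 to 5 and at 16.9, 9.79, 10.6, 7.96 and 14.2 CPM in TAC replicates 1 to 5. TAC replicates 1 and 5 were the highest, and all TAC libraries lay above sham (log2 fold change 1.32, SE 0.19, edgeR adjusted p = 1.18e-04). Rfc3 (1.14), Rfc5 (0.84) and Rfc2 (0.47) were also higher in log2 fold change, with edgeR adjusted p-values of 2.35e-05, 0.0020 and 0.0010. Of their exonic bases, Rfc2 shares 15.1% with Lat2, Rfc4 12.7% with Eif4a2 and Rfc5 10.7% with Wsb2, each on the opposite strand. Rfc1 stood at 46.4, 46.6, 53.2, 50.3 and 50.7 CPM in sham replicates 1 to 5 and at 41.9, 42.1, 36.1, 43.2 and 39.3 CPM in TAC replicates 1 to 5. Rfc1, the large subunit (chr5:65261850-65335670), was below the sham range in every TAC library and was called lower (log2 fold change -0.29, SE 0.07, edgeR adjusted p = 0.0039), whereas with library size as the only scaling its log2 fold change was 0.075 and did not pass (edgeR adjusted p = 0.37, range 0.00032 to 0.37 over 22 alternatives). Rfc4 over Rfc1 counts, a ratio that does not depend on scaling, had a log2 value of -3.37 ± 0.11 in sham and -1.82 ± 0.46 in TAC (exact permutation p = 0.00794, adjusted p = 0.0175). It was 2.94-fold higher in TAC.

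Single-strand binding and Okazaki fragment processing had the fewest changes, with 1 of 4 genes higher. Lig1, the ligase that seals Okazaki fragments, was the exception. Lig1 stood at 6.705, 6.13, 4.89, 6.73 and 6.23 CPM in sham replicates 1 to 5 and at 21.6, 20.9, 18.1, 18.2 and 19.2 CPM in TAC replicates 1 to 5. The Lig1 groups were far apart (log2 fold change 1.68, SE 0.11, edgeR adjusted p = 8.09e-07). Rpa1 and Rpa2 encode subunits of replication protein A, which coats single-stranded DNA in replication and in repair. Rpa1 stood at 78.9, 81.3, 83.8, 75.995 and 85.4 CPM in sham replicates 1 to 5 and at 87.9, 74.8, 64.1, 68.8 and 83.3 CPM in TAC replicates 1 to 5. Rpa2 stood at 21.9, 22.7, 21.5, 23.5 and 22.1 CPM in sham replicates 1 to 5 and at 30.7, 20.6, 18.7, 18.6 and 25.1 CPM in TAC replicates 1 to 5. Both genes overlapped between groups (Rpa1 -0.10 and Rpa2 0.03 on the log2 scale, edgeR adjusted p = 0.37 and 0.87), and the sign of Rpa1 turned to higher with library size as the only scaling (0.26, edgeR adjusted p = 0.018, range 0.018 to 0.71 over 22 alternatives). Rpa2 passed under that scaling as well (0.38, edgeR adjusted p = 0.018, range 0.018 to 0.995 over 22 alternatives), and its sign turned without TAC replicate 1 (-0.085). Fen1, the flap endonuclease of Okazaki processing, was near the detection limit. Fen1 stood at 0.559, 0, 0.334, 0.361 and 0.225 CPM in sham replicates 1 to 5 and at 0.301, 0.573, 0.503, 0.088 and 0.58 CPM in TAC replicates 1 to 5. Its groups overlapped and its error was wide (log2 fold change 0.44, SE 0.57, edgeR adjusted p = 0.53), and 84.2% of its exonic bases are shared with the opposite-strand genes Tmem258 and Gm10143, so its count is uncertain.

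Genes of deoxynucleotide synthesis included the largest increase of all 46. Rrm2, the small subunit of ribonucleotide reductase, is the part of that enzyme whose level follows S phase (chr12:24708241-24714146). Rrm2 stood at 3.91, 1.66, 4.16, 2.47 and 2.36 CPM in sham replicates 1 to 5 and at 106, 71.8, 80.4, 36.3 and 155 CPM in TAC replicates 1 to 5. The groups were far apart, with TAC replicate 4 lowest and replicate 5 highest. In the mean Rrm2 was 30.8-fold higher (log2 fold change 4.93, SE 0.41, edgeR adjusted p = 5.24e-06). Rrm1, the large subunit, is known to be more stable through the cycle. Rrm1 stood at 30.4, 29.01, 25.9, 27.03 and 26.8 CPM in sham replicates 1 to 5 and at 91.3, 67.1, 67.2, 52.7 and 102 CPM in TAC replicates 1 to 5. It rose 2.73-fold without overlap (log2 fold change 1.45, SE 0.16, edgeR adjusted p = 1.98e-05). The log2 ratio of Rrm2 to Rrm1 counts went from -4.10 to -2.63 in sham to -0.54 to 0.60 in TAC, a 10.9-fold difference between means (exact permutation p = 0.00794, adjusted p = 0.0175). Per length, Rrm2 was below Rrm1 in sham (2.45 and 5.88 TPM) and above it in TAC (103 and 21.97 TPM). The lengths join all annotated exons (2771 bases for Rrm2 and 11012 for Rrm1). In CPM the means were 2.91 and 27.8 in sham and 89.8 and 75.99 in TAC.

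The other enzymes of nucleotide supply divided. Tyms, which makes thymidylate from deoxyuridylate, went up from 2.71 ± 0.241 to 14.02 ± 2.32 CPM (log2 fold change 2.37, SE 0.14, edgeR adjusted p = 5.85e-07). Tk1, which makes it by salvage of thymidine, went up from 3.44 ± 0.581 to 17.3 ± 3.38 CPM (log2 fold change 2.35, SE 0.17, edgeR adjusted p = 1.40e-06). The Tk1 to Tyms log2 ratio was 0.33 ± 0.35 in sham and 0.30 ± 0.30 in TAC, a difference that did not pass (exact permutation p = 0.881, adjusted p = 0.905). Dut, which removes dUTP, did not follow them. Dut stood at 20.5, 20.7, 20.5, 18.4 and 23.5 CPM in sham replicates 1 to 5 and at 23.6, 17.2, 16.1, 13.3 and 24.6 CPM in TAC replicates 1 to 5. The Dut groups overlapped, with TAC values on both sides of the sham range (log2 fold change -0.13, SE 0.16, edgeR adjusted p = 0.52), and with library size as the only scaling its value turned positive without passing (0.24, edgeR adjusted p = 0.20, range 0.20 to 0.97 over 22 alternatives).

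All 4 genes that restore chromatin and DNA methylation behind the fork were higher. Uhrf1, which recognises hemimethylated DNA and recruits the maintenance methyltransferase (chr17:56303321-56323486), rose most. Uhrf1 stood at 3.04, 0.511, 1.22, 1.37 and 0.901 CPM in sham replicates 1 to 5 and at 26.4, 19.4, 17.1, 15.97 and 22.9 CPM in TAC replicates 1 to 5. Sham replicate 1 was the highest of the sham libraries, and the TAC libraries lay far above it (log2 fold change 3.89, SE 0.34, edgeR adjusted p = 6.21e-06). Dnmt1, the methyltransferase itself, rose by much less. Dnmt1 stood at 33.4, 33.2, 29.5, 31.7 and 31.5 CPM in sham replicates 1 to 5 and at 60.7, 59.4, 53.02, 52.1 and 58.3 CPM in TAC replicates 1 to 5. The spread of Dnmt1 was narrow in both groups (log2 fold change 0.83, SE 0.07, edgeR adjusted p = 2.87e-06). The log2 ratio of Uhrf1 to Dnmt1 counts ran from -5.93 to -3.44 in sham and from -1.71 to -1.20 in TAC, a 9.303-fold difference between means (exact permutation p = 0.00794, adjusted p = 0.0175). Chaf1a and Chaf1b encode subunits of chromatin assembly factor 1, which deposits histones on new DNA. Chaf1b went up from 0.593 ± 0.132 to 7.17 ± 2.01 CPM (log2 fold change 3.58, SE 0.25, edgeR adjusted p = 1.30e-06) and Chaf1a from 1.79 ± 0.179 to 11.4 ± 2.81 CPM (log2 fold change 2.69, SE 0.19, edgeR adjusted p = 1.65e-06), with 52.5% of the exonic bases of Chaf1a shared with the antisense gene Ubxn6.

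The 5 genes of S-phase entry and its checkpoint were all higher. E2f1, an activating E2F factor (chr2:154559407-154569892), had an increase close to that of Rrm2. E2f1 stood at 2.24, 0.831, 0.79, 0.876 and 0.525 CPM in sham replicates 1 to 5 and at 39.8, 26.4, 25.8, 16.1 and 41.4 CPM in TAC replicates 1 to 5. No TAC library came near the sham range, and TAC replicates 1 and 5 were the highest (log2 fold change 4.92, SE 0.38, edgeR adjusted p = 3.39e-06). E2f2, a related factor, went up from 0.457 ± 0.385 to 4.59 ± 0.451 CPM (log2 fold change 3.38, SE 0.37, edgeR adjusted p = 1.82e-05). Counts of E2f1 relative to E2f2 differed (1.30 ± 0.63 in sham and 2.62 ± 0.64 in TAC; exact permutation p = 0.0238, adjusted p = 0.0374) but overlapped between groups, and the call was lost without sham replicate 1, 3, 4 or 5. Cyclin E drives the kinase that starts S phase. Ccne1 went up from 1.99 ± 0.514 to 13.7 ± 3.27 CPM (log2 fold change 2.79, SE 0.22, edgeR adjusted p = 2.81e-06). Ccne2 stood at 2.73, 1.92, 2.37, 2.16 and 1.46 CPM in sham replicates 1 to 5 and at 14.99, 8.74, 7.58, 9.72 and 12.7 CPM in TAC replicates 1 to 5. Ccne2 increased slightly less than Ccne1 (log2 fold change 2.34, SE 0.22, edgeR adjusted p = 7.55e-06), with 17.4% of its exonic bases shared with the antisense gene Ints8, and the log2 ratio of Ccne1 to Ccne2 was -0.11 ± 0.14 in sham and 0.37 ± 0.25 in TAC (exact permutation p = 0.00794, adjusted p = 0.0175). Brca1, which protects stalled forks and repairs breaks, went up from 0.764 ± 0.385 to 7.25 ± 1.43 CPM (log2 fold change 3.22, SE 0.30, edgeR adjusted p = 6.49e-06).

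**Figure D3:**
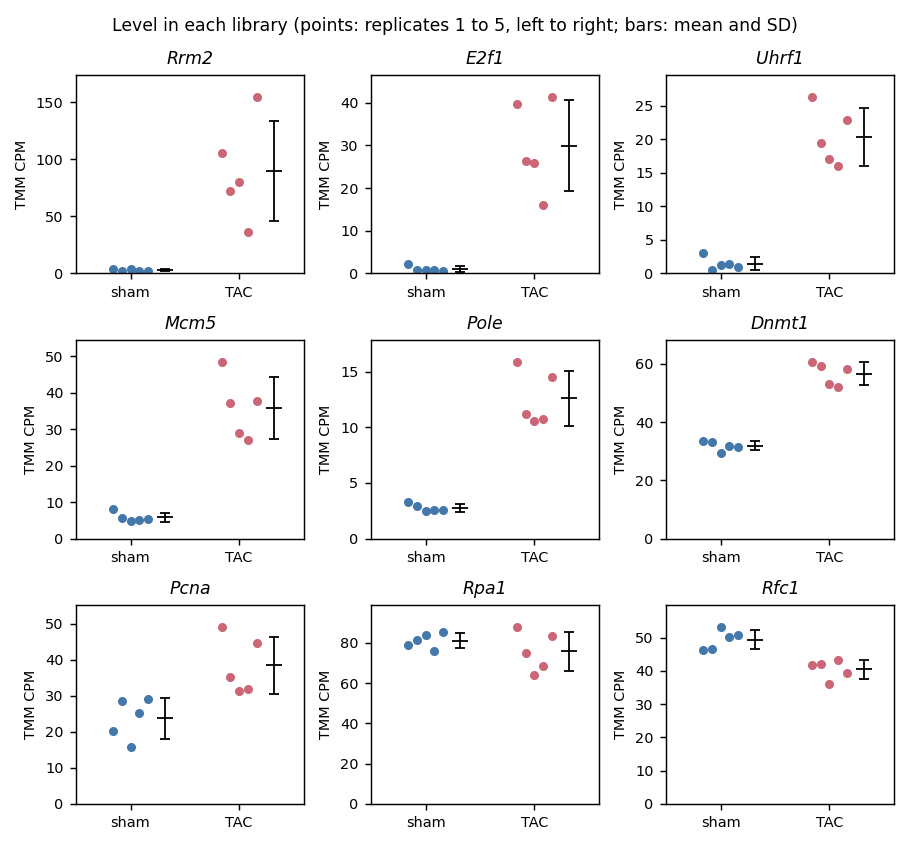
CPM scaled by TMM (vertical axes, linear from 0) in each library for 9 of the genes, with points for replicates 1 to 5 from left to right and bars for the mean and SD of each group. Rrm2 and E2f1 are separate between groups with a wide spread within TAC, Rpa1 overlaps, and Rfc1 lies lower in TAC on this scale but not with library size as the only scaling (0.075 on the log2 scale).

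Partner genes often did not change in proportion. Of 22 ratios between partners, 14 passed the exact permutation test after adjustment over the 22. Ratios of other gene pairs were not examined, and 28.9% of all tested genes were higher and 27.9% lower. The count therefore cannot be called particular to partners. The smallest p this test can give is 0.00794. The sign of a difference depends on which partner is written first. The genes were chosen with earlier results of these data known. The MCM ratios share their subunits, so the 22 are not independent tests. Mcm10 over Cdc45 was -3.55 ± 1.16 in sham and -1.49 ± 0.34 in TAC (exact permutation p = 0.0238, adjusted p = 0.0374), with sham replicate 1 overlapping the TAC range. Orc6 over Orc1 was 5.46 ± 1.25 in sham and 3.30 ± 0.66 in TAC (exact permutation p = 0.00794, adjusted p = 0.0175), with few Orc1 reads in sham. Chaf1b over Chaf1a was -1.58 ± 0.32 in sham and -0.68 ± 0.28 in TAC (exact permutation p = 0.0159, adjusted p = 0.0318). Its groups overlapped, with sham replicate 4 at -1.08 and TAC replicate 3 at -1.155. Beside the 4 MCM ratios and Tk1 over Tyms, those of Cdc6 over Cdt1, Rpa2 over Rpa1 and Fen1 over Lig1 did not pass (adjusted p = 0.496, 0.318 and 0.33, exact permutation test). When each library was left out in turn, 12 of the 14 passed every time. Of the ratios that had not passed, Fen1 over Lig1 did so without sham replicate 2, the sham library with 0 Fen1 reads (difference -1.73 against -1.02 with all libraries, adjusted p = 0.0194, exact permutation test). Those of Mcm3 and Mcm6 to the other MCM subunits did so without sham replicate 3 (0.25 and -0.15, adjusted p = 0.0499 and 0.0318, exact permutation test).

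**Figure D4:**
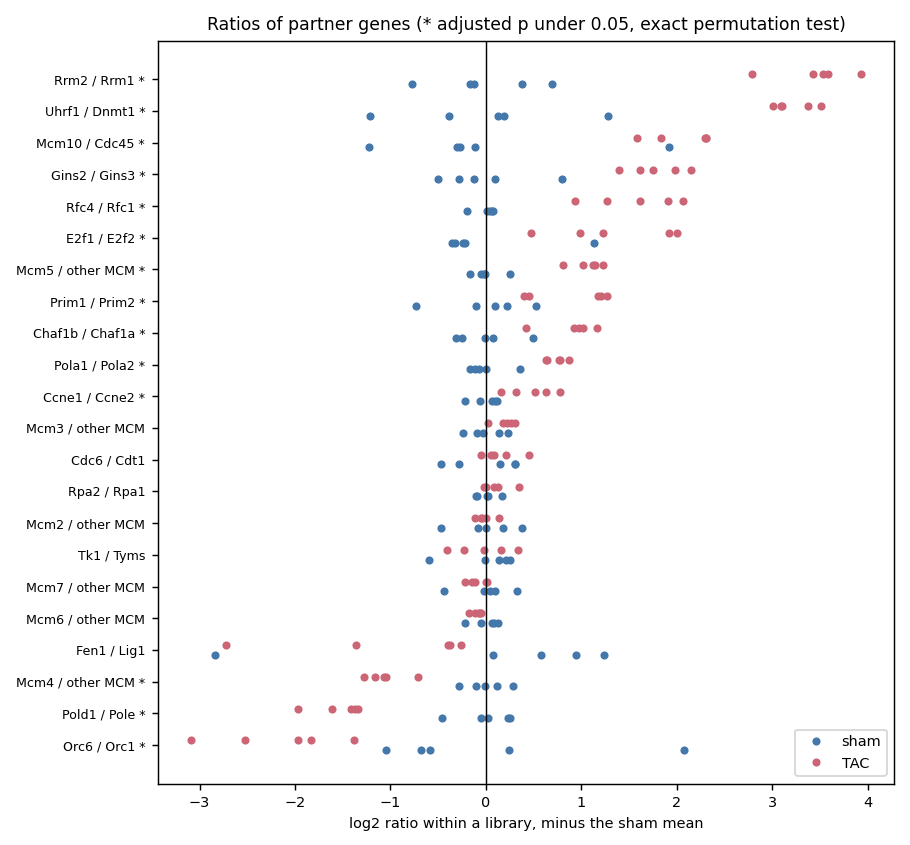
Log2 ratio of the counts of partner genes within each library, minus the sham mean of that ratio (horizontal axis), for the 22 ratios. Each sham and each TAC library has 1 point, and 0.5 was added to each count. The line at 0 is the sham mean and does not mean equal counts. Rrm2 over Rrm1 and Uhrf1 over Dnmt1 show the widest gaps between groups (3.45 and 3.22 between means), and Tk1 over Tyms shows hardly any (-0.03).

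Members scarcer in sham had larger log2 fold changes. Across the 46 genes, the log2 fold change and the log2 sham level per length had r = -0.70 and rho = -0.75. This is a description across genes, which are not independent replicates, and both axes contain the same sham values. Gins4, Rpa1, Dut, Rfc1, Rpa2 and Pcna lay at the abundant end with log2 fold changes from -0.29 (Rfc1) to 0.70 (Pcna). E2f1 and Rrm2 lay above genes of like sham level, and Fen1 and Pola2 lay below them.

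**Figure D5:**
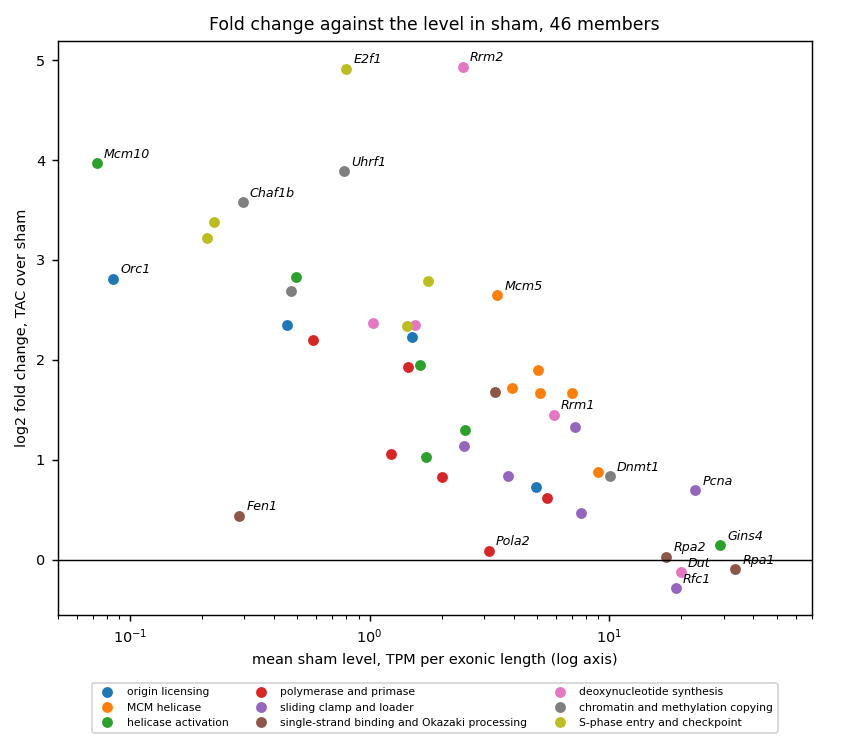
Log2 fold change, TAC over sham (vertical axis), against mean sham level per exonic length (horizontal log axis, TPM) for the 46 genes, coloured by role. Fold changes are smaller toward the right, where Rfc1 (-0.29, or 0.075 with library size as the only scaling), Rpa1, Rpa2, Dut and Gins4 lie around 0, while Rrm2 (4.93) and E2f1 (4.92) lie highest.

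Other genes of the cell cycle gave the setting, beside shares of 28.9% higher and 27.9% lower over all tested genes. Of 48 further replication genes, 33 were higher and 4 lower (median log2 fold change 0.51). Clspn, a fork checkpoint adaptor, rose most clearly (log2 fold change 4.44, SE 0.26, edgeR adjusted p = 6.04e-07). Rrm2b, the p53-inducible small subunit of ribonucleotide reductase used outside S phase, moved against Rrm2 (58.04 ± 2.57 CPM in sham and 28.6 ± 2.797 CPM in TAC; log2 fold change -1.02, SE 0.08, edgeR adjusted p = 1.88e-06). Ddb1, a ubiquitin ligase adaptor that acts on CDT1 among other proteins, had a log2 fold change of 0.33. Of 28 genes of RB-E2F and G1-S control, 20 were higher and 3 lower (median 0.62). Mybl2 rose (log2 fold change 3.97, SE 0.26, edgeR adjusted p = 1.06e-06), Rbl2, the pocket protein p130 of resting cells, fell (log2 fold change -0.57, SE 0.08, edgeR adjusted p = 1.19e-04), and cyclin D2 (Ccnd2) had a log2 fold change of 0.62. Of the 6 tested CDK inhibitor genes, 4 were higher and the other 2 did not pass (median 1.03). The higher ones included Cdkn2c (1.43) and Cdkn1a (0.99), and Cdkn1a overlapped between groups.

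All 30 genes of mitosis and G2-M were higher, with a median log2 fold change of 4.78. Birc5, a chromosomal passenger protein, had a log2 fold change of 5.59, and Top2a, which untangles sister chromatids, of 5.34. The ratio of the summed CPM of the mitosis list to that of the 46 replication genes was 0.217, 0.128, 0.168, 0.147 and 0.109 in sham replicates 1 to 5 and 0.861, 0.779, 1.38, 0.457 and 1.18 in TAC replicates 1 to 5. No sham library reached the TAC range. TAC replicate 3, the lowest TAC library for many replication genes, had the highest ratio, and replicate 4 had the lowest. Of 24 genes of homologous recombination and fork protection, 21 were higher, 1 was lower and 2 did not pass (median 1.77). The smallest adjusted p among them was that of Fancd2, of the Fanconi anaemia pathway (log2 fold change 3.78). Of 22 genes of excision and end-joining repair, 3 were higher and 5 lower (median -0.01), among them the Ku subunits Xrcc6 (0.45) and Xrcc5 (-1.003). Over all tested genes 28.9% were higher and 27.9% lower, so these repair calls do not stand out by number. Of 15 p53 targets, 9 were higher and 3 lower (median 0.75), with Phlda3 at 1.66, Btg2 at -2.01 and Ccng1 at -0.56. The signs of the fallen genes are those under TMM scaling.

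Marker genes of several cell types also differed between groups. Over all tested genes 28.9% were called higher and 27.9% lower, so a few calls on a short list are not particular to that cell type. In bulk tissue fewer cells of a type and less RNA per cell cannot be told apart. Cardiomyocyte markers summed to 88075 to 102450.0 CPM in sham and 45086 to 58315 CPM in TAC, with 9 of 10 lower and 1 higher, and Myh6 was at 33656 ± 2680.5 CPM in sham and 11997 ± 2567 CPM in TAC. The atrial markers Myl7 (8888 ± 623 CPM in sham and 2158 ± 811 CPM in TAC) and Nppa (5663 ± 433 CPM in sham and 9834 ± 491 CPM in TAC), picked outside the naming rule with the labelled tissue in mind, were abundant in both groups. Without a ventricular library or marker beside them, these levels do not settle the tissue. Macrophage markers summed to 284 to 456 CPM in sham and 501 to 842 CPM in TAC (8 of 10 higher, 1 lower), and the complement gene C1qb was at 41.6 ± 15.3 CPM in sham and 131 ± 35.2 CPM in TAC. Fibroblast markers summed to 4625 to 6482 CPM in sham and 5093 to 9709 CPM in TAC (6 of 10 higher, 2 lower under TMM scaling), with the most abundant, Gsn, among the lower ones (log2 fold change -1.71). Those of smooth muscle and pericytes summed to 412 to 536 CPM in sham and 720.3 to 1023 CPM in TAC (4 of 8 higher, 1 lower). Endothelial markers overlapped between groups (904 to 1283 CPM in sham and 927 to 1297 CPM in TAC; 3 of 8 higher, 1 lower). Erythroid markers summed to 136 to 300.2 CPM in sham and 298 to 2549 CPM in TAC (5 of 5 tested higher), with TAC replicate 3 the highest. Neutrophil markers (0.831 to 3.79 CPM in sham and 4.64 to 11.01 CPM in TAC) and T cell markers (3.34 to 8.82 CPM in sham and 2.15 to 6.28 CPM in TAC) were scarce, as were those of B cells (0.338 to 2.23 CPM in sham and 1.62 to 4.11 CPM in TAC), NK cells (0.113 to 0.831 CPM in sham and 0.786 to 2.32 CPM in TAC) and mast cells (4.39 to 11.3 CPM in sham and 11.6 to 20.1 CPM in TAC). Of those tested, 3 of 3 neutrophil, 2 of 2 B cell and 1 of 1 NK cell markers were higher, 2 of 5 mast cell markers were higher and 1 lower, and 1 of 5 T cell markers was higher and 1 lower. Schwann cell markers summed to 70.1 to 83.5 CPM in sham and 39.7 to 53.96 CPM in TAC (4 of 4 tested lower under TMM scaling). Endocardial markers summed to 564 to 1118 CPM in sham and 483 to 776 CPM in TAC (2 of 4 lower under TMM scaling and 2 not called, Cytl1 with a log2 fold change of -1.64). Adipocyte markers summed to 144 to 209 CPM in sham and 170.4 to 288 CPM in TAC, a sum carried by Fabp4 (154 ± 18.03 CPM in sham and 227 ± 43.05 CPM in TAC). Of the 4 tested, Fabp4 was higher and 3 were lower under TMM scaling (median log2 fold change -2.92), Plin1 most of all (-3.95). Epicardial and mesothelial markers overlapped between groups (94.9 to 338 CPM in sham and 143 to 359 CPM in TAC; 1 of 6 higher). No listed marker was at 0 in all 10 libraries. The part of these cell types in the changes of the replication genes was not tested.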

How the data were processed

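Bulk RNA-seq of mouse left atrium (5 sham and 5 TAC libraries, grouped by title) was analysed from 1 table per library. The deposited values are raw counts per gene symbol, without normalization by the authors. STAR, bcl2fastq and the build mm10 are named, without version, by the submitters' processing notes. For the counter, annotation and strand setting nothing is given in the sources used here. The labels name the Trio Low Input RNA Kit and the design text a TruSeq kit. The 5 closing tallies that name no gene stayed out of all totals (2.86% to 4.83% of reads in no feature, 3.85% to 6.09% ambiguous, 3.60% to 5.49% not aligned, 12.1% to 16.8% not unique).

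Counts were tested with edgeR 4.0.16 in R 4.3.3 (quasi-likelihood F test, TMM, filterByExpr with group, robust, group as the only term) over 15175 genes, adjusted by Benjamini-Hochberg over all of them. SE is the size of the log2 fold change over the square root of F. Ratios of partner genes used counts plus 0.5 and a two-sided exact permutation test over 252 regroupings. Of the symbols, 46294 (95.7%) matched 1 gene of GENCODE M21 (GRCm38), which gave coordinates, overlaps and exonic lengths for TPM. An exonic length joins all annotated exons of a gene, so levels per length of different genes depend on the annotation. Promoters are from RefSeq (GRCm38.p6). Intervals and floors cover counting error only. The scripts were tested on simulated data. No pair of libraries agreed within sampling noise (lowest chi-square per degree of freedom 18.9), and all 10 were used. Alternatives covered scaling, filters, DESeq2 1.42.0, limma 3.58.1 (voom), thinning, a replicate block, thresholds and each library left out.

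The 46 genes and all lists were chosen with earlier results of these data known, so no list was tested as such. Any of the 46 may be named. Values per library are given for the largest and smallest log2 fold change and the highest mean CPM of each role and for genes not called. Of each pathway list the called gene with the smallest adjusted p in each direction and the most abundant gene are named (1 gene that this takes is not reported here). Of a marker list the most abundant gene may be named, and Plin1, Cytl1, Myl7 and Nppa were named after their values were seen.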

Additional observations from a re-analysis of the deposited data

Results flagged for a closer look

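Among the 92 groups of 5 values examined (46 genes in sham and in TAC), 6 had 1 library whose gap to its nearest neighbour was over 0.71 of the group's range, Dixon's 95% limit for 5 values. Chance gives about 1 in 20. Sham replicate 1 was the high one for 4 genes: Mcm5 at 8.07 CPM (next 5.62), Mcm10 at 0.559 CPM (next 0.192), E2f1 at 2.24 CPM (next 0.876) and E2f2 at 1.12 CPM (next 0.412). It is also the sham library with the highest value for 24 of the 46 genes and one of the 2 shallowest. Prim1 was low in sham replicate 3, at 1.16 CPM (next 2.52). Gins1 was high in TAC replicate 1, at 6.32 CPM (next 3.93). Each of these 6 genes was still called higher in TAC when that library was left out.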

How the results depend on the processing

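The count of 39 higher members was 43 with library size only, 38 with a filter of 1 CPM and with thinned libraries (44 members tested in each) and 34 against a fold of 1.5, and stayed at 39 under the other alternatives. With library size as the only scaling 0 members were lower by edgeR, since all 46 values were above 0, and their median was 2.04 (1.67 as reported). The signs of Rfc1 (0.075), Rpa1 (0.26) and Dut (0.24) reversed, and Gins4, Pola2, Rpa1 and Rpa2 passed the threshold. Against a fold of 1.5, 0 members were lower, as the Rfc1 difference is smaller than that. The log2 fold change of Rpa2, not called, changed sign with limma voom (-0.092) and with the replicate block (-0.0009632), and ran from -0.085 to 0.11 with 1 library left out; the cause was not tested. No member's fold moved by over 1.5 times without 1 library. The ratios that passed numbered 11 to 15 of 22 over the other alternatives, and 0 under the replicate block, whose sign-flip test over 5 pairs cannot give an exact p under 0.0625. The labels do not say what the replicate numbers mean, and same-numbered libraries did not deviate together (correlations from -0.04 to 0.08, none of 5 best with its own number). With the replicate block, 39 members were higher and 1 lower as before, and 4103 genes were higher and 3917 lower over all tested. Low sham counts limit Orc1, Fen1, Mcm10, E2f2 and Brca1.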
